A study of Mus musculus with 13 samples.

Results

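The genes described here are the collagen chains and a set of stromal matrix genes of the mouse small intestine. They were chosen by symbol alone, as every gene named Col, a number, a and a number (Col1a1, for example) together with Dcn, Lum, Bgn, Sparc, Fn1, Fbn1, Postn, Tnc, Vim, Pdgfra, Pdgfrb, Thy1, Lox and Fap. Only probe sets annotated to a single symbol were used, and each gene was represented by the probe set with the highest mean over the 13 arrays. This gave 57 genes of the 19938 with such a probe set: 44 collagen chains and 13 others. Col21a1 and Fbn1 had no probe set annotated to a single symbol and were not analysed here.

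RNA was profiled on Affymetrix Mouse Gene 1.0 ST arrays from single crypts picked by glass capillary from the small intestine of Apc mutant mice that also carried transgenes for FPs. All 13 arrays share this cross. Of these, 6 arrays held normal epithelium with low FP expression (FP_lo), 4 held normal epithelium with high FP expression (FP_hi) and 3 held adenomas (Adenoma). Both kinds of normal epithelium lay next to adenomas, so neither is tissue from a mouse without tumours. The Apc allele, the promoter that drives the FPs, the meaning of FP and the age of the animals are not stated in the labels or the design text. Nor is it known from them which arrays came from the same mouse, so p-values measure the spread between arrays, which may be partly technical.

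Collagens are triple-helical proteins of the extracellular matrix. Fibrillar collagens (types I, III and V among them) give the lamina propria and submucosa their tensile strength, type IV forms the sheet of the basement membrane under the epithelium, and type VI forms beaded filaments around cells. Proteoglycans and glycoproteins such as decorin, SPARC and fibronectin bind these fibres or the cells that touch them. In the intestine the fibrillar chains are made mainly by fibroblasts and smooth muscle cells, which lie outside the crypt epithelium, although epithelial and tumour cells can make some matrix proteins such as fibronectin and tenascin C.

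In the adenomas, Dcn, Fn1 and Sparc (5.26% of members) were 2.34-fold to 5.13-fold higher than in normal epithelium at an adjusted p under 0.05. None of the 44 collagen chains changed at that threshold. Over all tested probe sets, 0.884% were higher and 0.0256% lower by it. The absence of a collagen call is near what these shares would give. The calls for Dcn, Fn1 and Sparc were lost without adenoma replicate 1. They were also lost with the replicate number as a block (limma, adjusted p = 0.168, 0.0718 and 0.0843 in that order). The labels do not say what this number marks. With the block, the probe sets called higher over the whole table fell from 207 to 66. The 3 genes are all secreted matrix glycoproteins or proteoglycans. They were the only members for which every adenoma array lay above all 10 normal arrays (5.26%, against 1.93% of all tested probe sets). Between FP_hi and FP_lo epithelium no member passed the test, where 0% of all tested probe sets did. Most collagen chains varied little over the whole series. With FP_hi replicate 1 set aside, the highest and lowest of the remaining 12 arrays lay under 1 log2 unit apart in 43 of 44 collagens (Col12a1 is the exception), against 58.2% of all tested probe sets.

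The 13 arrays had similar medians, with 1 standing apart. FP_hi replicate 1 had a spread of log2 values (SD over probe sets) of 1.21, against 1.89 to 2.10 in the other 12, and a median correlation across probe sets with the other arrays of 0.762, against 0.943 to 0.968. It held 362 probe sets above a log2 level of 9, where the others held 1091 to 1320. FP_hi replicate 1 was the highest of the 13 arrays in 22 of the 57 members (38.6%, against 33.3% of all tested probe sets) and the lowest in 10 (17.5%, against 29.9%). The mean log2 level of 10 epithelial markers was 6.13 in FP_hi replicate 1 and 8.03 to 8.93 in the other 12 arrays. As that array held fewer bright probe sets of any kind, the low mean of these markers does not show whether it held less epithelium. Of these markers Epcam, an epithelial adhesion protein, had a log2 level of 9.20 ± 0.20 in FP_lo (SD, n = 6), 8.71 ± 0.77 in FP_hi (SD, n = 4, with 7.58 in replicate 1) and 9.28 ± 0.05 in adenomas (SD, n = 3).

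The matrix genes were dim or of middle brightness. On the deposited log2 scale, 39 of 57 members had a mean over all arrays above the median of all tested probe sets (4.64), where 50% of probe sets do by construction, and 0 of 57 had a mean above 6, where 20.5% of tested probe sets did. The deposited table has no detection calls, so it does not show which of these levels stand above the array's background. A small fold change between dim probe sets can therefore understate a change in RNA. In whole crypts, fewer cells of a type and less RNA per cell cannot be told apart.

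The question put to the adenoma arrays was how matrix gene RNA differs between tumour and neighbouring normal crypts. The adenoma mean was set against the average of the FP_hi and FP_lo means with limma, on all 23410 probe sets with a gene symbol, and p-values were adjusted over all of them by Benjamini-Hochberg. By this rule 3 of 57 members (5.26%) rose in adenomas, where 0.884% of all tested probe sets did, and 0 of 57 fell, where 0.0256% did. At an unadjusted p under 0.05, 4 members were higher (7.02%, against 5.98% of all) and 5 were lower (8.77%, against 4.59%). The median member difference was -0.12 on the log2 scale, beside a median of -0.09 over all tested probe sets. Adenoma arrays lay wholly above the normal arrays in 3 members (5.26%, against 1.93% of all) and wholly below them in 3 (5.26%, against 2.04%).

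**Figure D1:**
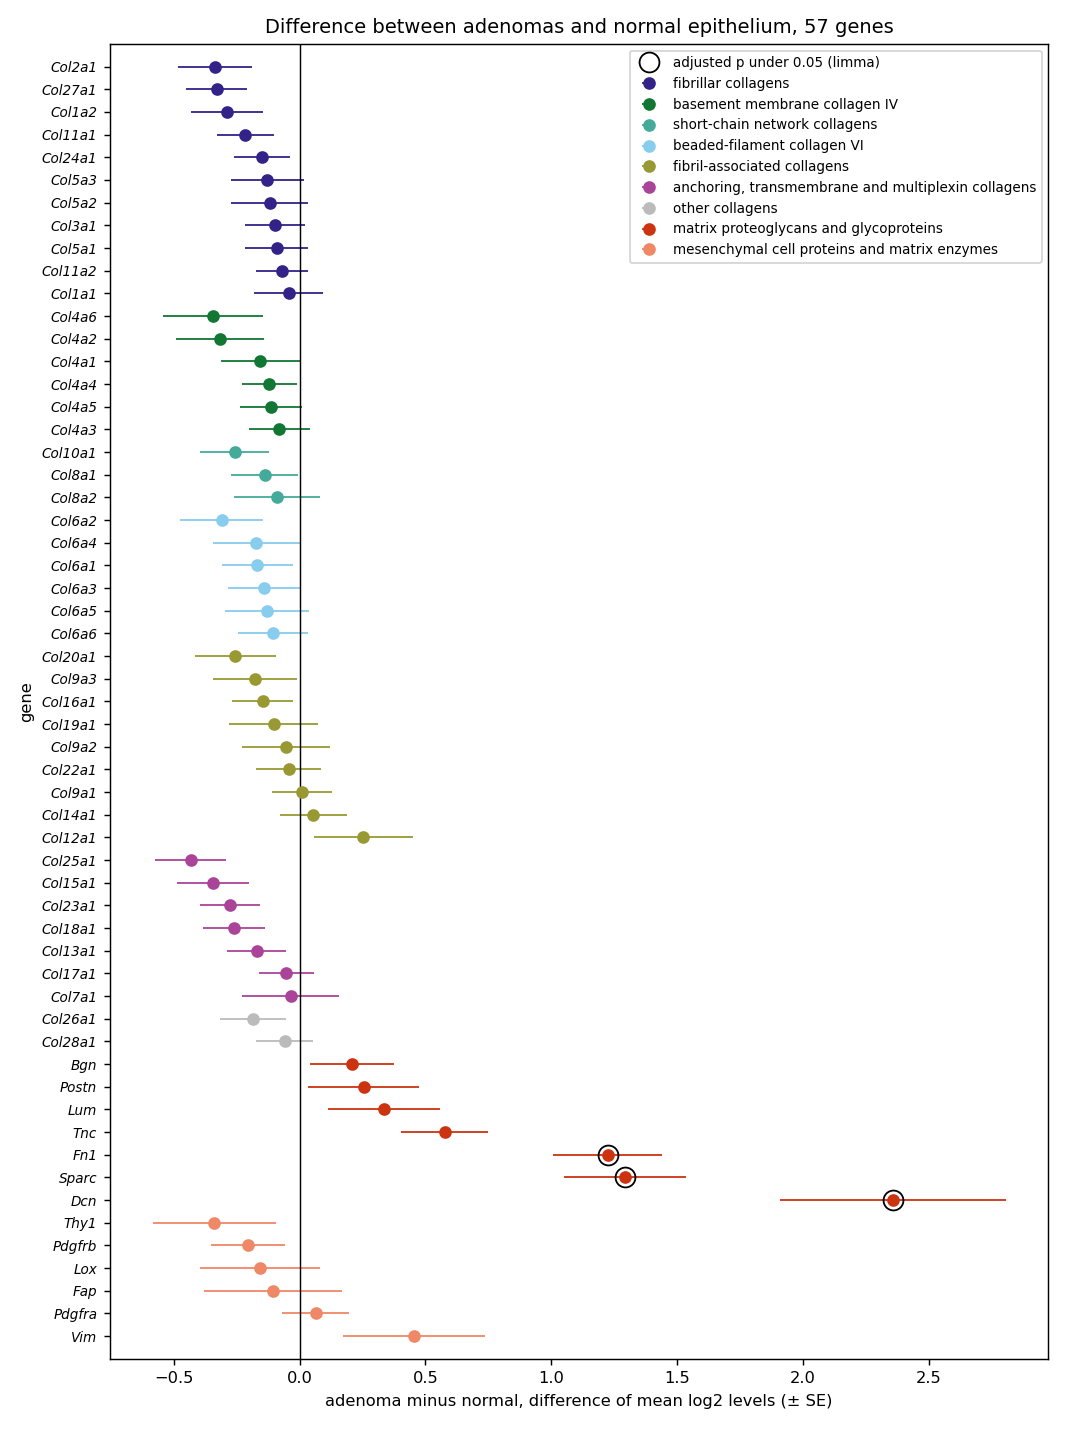
Difference between adenoma and normal epithelium in each of the 57 members, on the log2 scale, with horizontal bars of 1 SE from limma and colours for the classes. The circled genes, Dcn (2.36), Sparc (1.30) and Fn1 (1.22), had an adjusted p under 0.05, and the collagen chains lie close to 0, mostly on its left.

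Decorin, encoded by Dcn, is a small leucine-rich proteoglycan that decorates collagen fibrils and governs their spacing. The log2 level of Dcn was 3.35 to 3.96 in FP_lo (median 3.58), was 4.07, 3.82, 3.48 and 3.83 in FP_hi, and was 7.62, 6.14 and 4.41 in the adenomas. All 3 adenomas lay above the 10 normal arrays, but they spread over more than 3 log2 units, with replicate 1 highest and replicate 3 only a little above the top normal array. The group means were 3.59 ± 0.23 (SD, n = 6), 3.80 ± 0.24 (SD, n = 4) and 6.06 ± 1.61 (SD, n = 3). The adenoma difference was 2.36 ± 0.45 (SE), or 5.13-fold (limma, adjusted p = 0.0277).

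Fibronectin, encoded by Fn1, is a glycoprotein that binds integrins, collagen and heparan sulphate. The Fn1 log2 level was 3.98 to 4.42 in FP_lo (median 4.12), was 4.80, 4.06, 4.37 and 4.25 in FP_hi, and was 6.16, 5.05 and 5.23 in the adenomas. The lowest adenoma was again above the highest normal array, which was FP_hi replicate 1. The difference was 1.22 ± 0.22 (SE), or 2.34-fold (limma, adjusted p = 0.0187). Dcn and Fn1 had no entry in the promoter table and no upstream sequence of theirs is shown.

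SPARC (osteonectin) is a secreted collagen-binding protein that takes part in the assembly of collagen fibrils and basement membranes. The Sparc log2 level was 4.24 to 4.999 in FP_lo (median 4.51), was 5.07, 4.59, 4.40 and 4.82 in FP_hi, and was 6.66, 5.42 and 5.68 in the adenomas. As with Fn1, adenoma replicate 1 was the highest of all 13 arrays and the groups did not overlap. The difference was 1.30 ± 0.24 (SE), or 2.45-fold (limma, adjusted p = 0.0253).

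The upstream windows of 250 bases of Sparc, which passed the test, and of Col1a2, a type I collagen chain that did not, are shown so that 1 gene of each kind can be read. They are given as RefSeq gives them on GRCm38.p6, each read 5′ to 3′ on its own strand (Sparc from the minus strand of chr11:55420081-55420330, Col1a2 from the plus strand of chr6:4505368-4505617). Capitals mark matches on either strand to the TATA box, which reads TATAAA, the CCAAT box, the GC box, which reads GGGCGG, or the AP-1 site, which reads TGANTCA.
Sparc: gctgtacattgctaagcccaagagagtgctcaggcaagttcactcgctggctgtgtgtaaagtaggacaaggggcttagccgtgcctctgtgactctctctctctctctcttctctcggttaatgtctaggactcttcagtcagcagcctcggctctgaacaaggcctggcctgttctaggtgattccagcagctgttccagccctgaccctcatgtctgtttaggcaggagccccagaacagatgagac
Col1a2: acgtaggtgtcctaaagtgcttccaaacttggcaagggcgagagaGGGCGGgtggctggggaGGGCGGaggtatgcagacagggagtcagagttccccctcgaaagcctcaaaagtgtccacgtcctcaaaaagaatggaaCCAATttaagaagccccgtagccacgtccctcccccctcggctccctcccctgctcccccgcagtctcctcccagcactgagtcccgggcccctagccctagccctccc
The Sparc window held none of the 4 motifs and had a GC content of 54%. The Col1a2 window had a GC content of 62% and held 1 CCAAT box and 2 GC boxes. Over all 32851 upstream windows of the table, 12.4% held the TATA motif, 33.8% the CCAAT motif, 32.7% the GC motif and 6.75% the AP-1 motif. The 41 members found in that table had 46 windows, of which 9 held the TATA motif, 14 the CCAAT motif, 25 the GC motif and 1 the AP-1 motif. These are matches of letters and do not show that a factor binds.

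The calls for Dcn, Fn1 and Sparc rested on the adenoma arrays unequally. Without adenoma replicate 1, no member passed: the difference was 1.58 for Dcn (limma, adjusted p = 0.1), 0.88 for Fn1 (adjusted p = 0.0995) and 0.93 for Sparc (adjusted p = 0.142). Against FP_lo alone all 3 passed (0.534% of all tested probe sets rose), with differences of 2.46, 1.34 and 1.39 (limma, adjusted p = 0.041, 0.0194 and 0.0306), whereas against FP_hi alone the differences were 2.25, 1.11 and 1.20 and none passed, where 0.748% of all did (limma, adjusted p = 0.0716, 0.0668 and 0.0762). With the replicate number as a block the differences were 2.31, 1.24 and 1.40 and again none passed (limma, adjusted p = 0.168, 0.0718 and 0.0843).

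**Figure D2:**
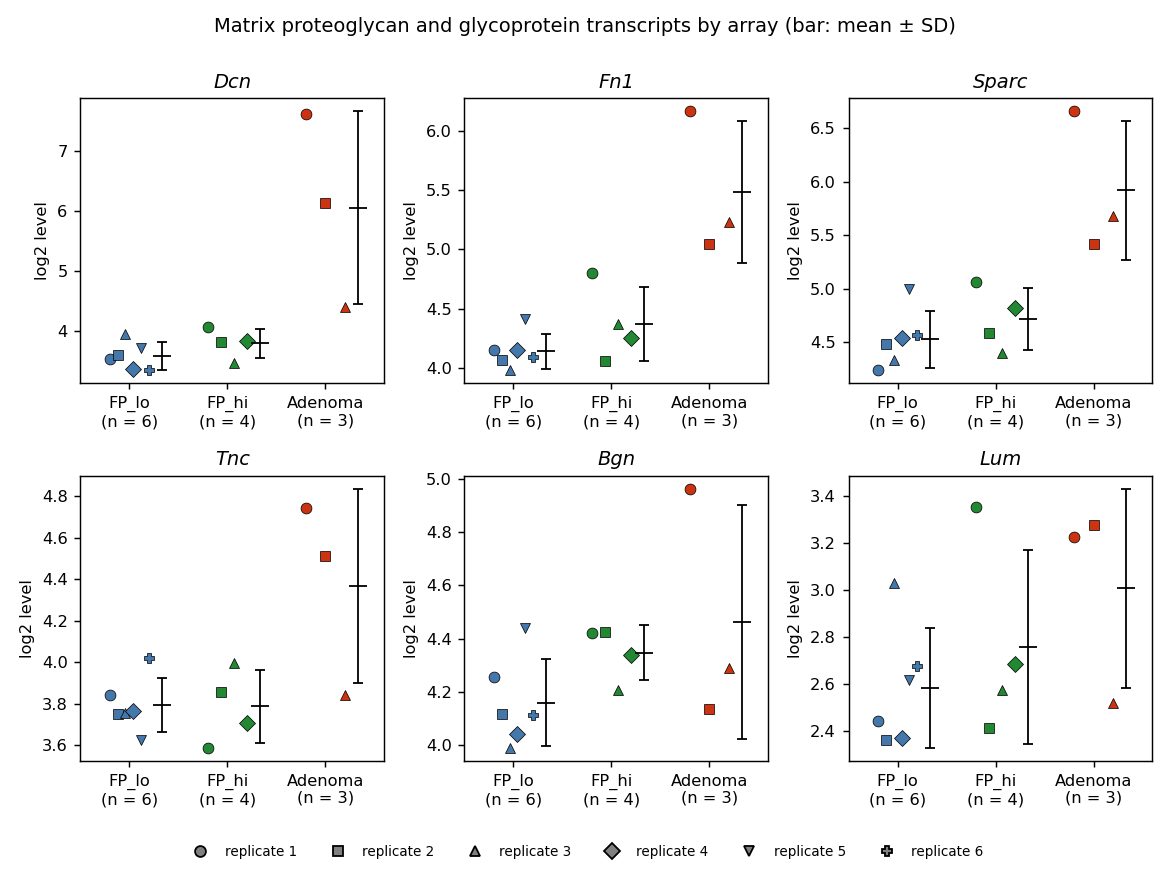
Log2 level of 6 matrix glycoprotein and proteoglycan genes in every array, grouped as FP_lo, FP_hi and Adenoma, with the group mean and SD as a bar and a symbol for each replicate number. The adenomas of Dcn (7.62, 6.14 and 4.41), Fn1 and Sparc lie above all normal points, while those of Bgn fall among them except for replicate 1. Those of Lum lie below the FP_hi replicate 1 point, with adenoma replicates 1 and 2 above the other normal points.

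The other 4 glycoproteins and proteoglycans leaned the same way without passing the test. The mean adenoma difference was above 0 in all 7 measured members of this class, with a class median of 0.58, where 38.1% of all tested probe sets were above 0. Adenoma replicate 1 was the highest of the 3 adenomas in 6 of the 7, with Lum as the exception. Tenascin C, encoded by Tnc, is an adhesion-modulating glycoprotein found around remodelling tissue. The Tnc log2 level was 3.62 to 4.02 in FP_lo (median 3.76), was 3.59, 3.86, 4.00 and 3.71 in FP_hi, and was 4.75, 4.51 and 3.85 in adenomas. Adenoma replicates 1 and 2 were above every normal array and replicate 3 was among them, and the difference of 0.58 ± 0.17 (SE) missed the threshold (limma, adjusted p = 0.211). Without adenoma replicate 3 it passed (limma, adjusted p = 0.035).

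Biglycan, encoded by Bgn, is the closest relative of decorin among the members. The Bgn log2 level was 3.99 to 4.44 in FP_lo (median 4.11), was 4.42, 4.42, 4.21 and 4.34 in FP_hi, and was 4.96, 4.13 and 4.29 in adenomas. A single adenoma array stood above the normal range, and the difference was 0.21 ± 0.17 (SE; limma, adjusted p = 0.632). Lumican, encoded by Lum, is another leucine-rich proteoglycan of collagen fibrils, and its adenoma levels of 3.22, 3.27 and 2.52 overlapped the normal range of 2.36 to 3.35 (difference 0.34 ± 0.22 SE; limma, adjusted p = 0.589). The 3.35 was FP_hi replicate 1, and the next highest normal array was FP_lo replicate 3 at 3.03. Periostin, encoded by Postn, is a matricellular protein of activated fibroblasts. Its adenoma levels of 3.65, 3.37 and 3.09 were above the FP_lo range of 2.69 to 3.06, but FP_hi replicate 1 was higher still at 4.13 (difference 0.25 ± 0.22 SE; limma, adjusted p = 0.649).

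Among the fibrillar collagens, the structural rods of the connective tissue, 0 of 11 chains passed the test, with 0 higher and 2 lower at an unadjusted p under 0.05. Over all tested probe sets 5.98% were higher and 4.59% lower at that p. The class median difference was -0.13, and all 11 mean differences were below 0, as were those of 45 of the 57 members and of 61.9% of all tested probe sets. Col1a1 encodes the main chain of type I collagen. The Col1a1 log2 level was 5.31 to 5.78 in FP_lo (median 5.60), was 5.24, 5.59, 5.56 and 5.65 in FP_hi, and was 5.61, 5.42 and 5.43 in adenomas. The 3 groups overlapped fully and the difference was -0.04 ± 0.13 (SE), with a 95% interval that ended at 0.25 (limma, adjusted p = 0.89).

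Col1a2 encodes the partner chain of Col1a1. Its log2 level was 5.24 to 5.71 in FP_lo (median 5.27), was 5.27, 5.29, 5.26 and 5.63 in FP_hi, and was 5.19, 5.15 and 4.87 in adenomas. Every adenoma lay below every normal array, by a small margin in replicates 1 and 2, and the difference of -0.29 ± 0.14 (SE) missed the threshold (limma, adjusted p = 0.5). Col3a1, the chain of type III collagen that forms fibrils together with type I, had log2 levels of 4.95, 5.02 and 5.09 in adenomas, within the normal range of 4.92 to 5.40 (difference -0.10 ± 0.12 SE; limma, adjusted p = 0.722). The 2 chains lower at an unadjusted p were Col27a1 (difference -0.33 ± 0.12 SE; limma, adjusted p = 0.332) and Col2a1, the cartilage collagen (difference -0.34 ± 0.15 SE; limma, adjusted p = 0.435).

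**Figure D3:**
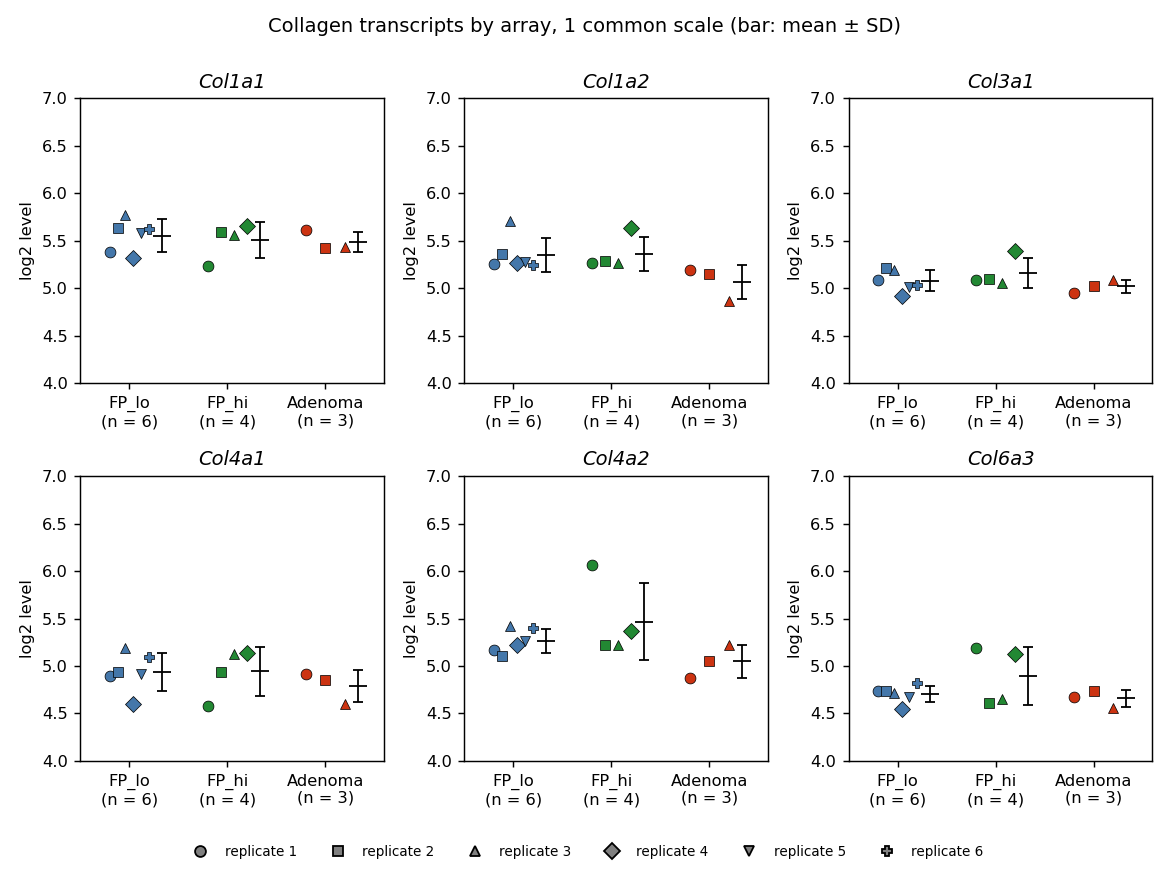
Log2 level of 6 collagen chains in every array on a common scale, grouped as FP_lo, FP_hi and Adenoma, with the group mean and SD as a bar and a symbol for each replicate number. Adenoma points lie among the normal points for Col1a1, Col3a1, Col4a1 and Col6a3, and slightly below them for Col1a2 (5.19, 5.15 and 4.87).

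The basement membrane collagens, which lie directly under the crypt epithelium, showed 0 of 6 chains past the test and 0 at an unadjusted p under 0.05 (limma). Their class median difference was -0.14 and all 6 mean differences were below 0, beside 61.9% of all tested probe sets. Col4a1, which with Col4a2 makes the common type IV network, had log2 levels of 4.60 to 5.19 in FP_lo (median 4.92), of 4.58, 4.94, 5.13 and 5.13 in FP_hi, and of 4.91, 4.85 and 4.60 in adenomas, so the groups overlapped. The difference was -0.16 ± 0.16 (SE; limma, adjusted p = 0.682). Col4a2 had log2 levels of 4.87, 5.06 and 5.22 in adenomas against 5.11 to 5.42 in FP_lo, and FP_hi replicate 1 stood alone at 6.07 (difference -0.32 ± 0.17 SE; limma, adjusted p = 0.536).

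The 6 chains of type VI collagen also held 0 past the test and 0 at an unadjusted p under 0.05 (limma), with a class median of -0.15 and all 6 below 0, beside the same 61.9% of all probe sets. Col6a1, Col6a2 and Col6a3 encode the chains of the widespread form. Col6a1 levels of 4.88, 4.97 and 4.93 in adenomas lay inside the normal range of 4.84 to 5.46 (difference -0.17; limma, adjusted p = 0.644). Col6a2 levels of 5.38, 5.37 and 5.43 lay inside the normal range of 5.22 to 6.30, whose top value was FP_hi replicate 1 (difference -0.31; limma, adjusted p = 0.525). Col6a3 levels of 4.68, 4.73 and 4.56 lay inside the normal range of 4.55 to 5.19 (difference -0.14; limma, adjusted p = 0.683). Col6a6 differed by -0.10 (limma, adjusted p = 0.743).

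The 7 anchoring, transmembrane and multiplexin collagens had the lowest class median, at -0.26. None passed the test, 0 were higher and 3 were lower at an unadjusted p under 0.05 (4.59% of all tested probe sets were lower), and all 7 mean differences were below 0 (61.9% of all). Col25a1, a membrane-spanning collagen, had log2 levels of 4.78 to 5.23 in FP_lo (median 4.83), of 4.81, 4.52, 5.08 and 4.88 in FP_hi, and of 4.44, 4.42 and 4.42 in adenomas. The adenomas were nearly equal to each other and below all 10 normal arrays, and the difference was -0.43 ± 0.14 (SE; limma, adjusted p = 0.259). Col15a1, a multiplexin of basement membrane zones, had log2 levels of 4.57, 4.49 and 4.40 in adenomas against a normal range of 4.64 to 5.24, again with no overlap (difference -0.34 ± 0.14 SE; limma, adjusted p = 0.418). Col23a1, another membrane-spanning chain, differed by -0.28 ± 0.12 (SE; limma, adjusted p = 0.435).

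Of the chains that tie the epithelium to its base, Col7a1 encodes the anchoring fibril and Col17a1 a hemidesmosome protein made by epithelial cells. Col7a1 levels of 5.35, 5.40 and 5.25 in adenomas overlapped an FP_lo range of 5.39 to 5.57 and an FP_hi range that reached down to 4.53 in replicate 1 (difference -0.03 ± 0.19 SE). Col17a1 levels of 4.87, 4.86 and 4.71 lay within the normal range of 4.69 to 5.0 (difference -0.05). Col18a1, the source of endostatin, had adenoma levels of 4.75, 4.73 and 4.66 against a normal range of 4.69 to 5.40 (difference -0.26 ± 0.12 SE; limma, adjusted p = 0.484).

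The fibril-associated collagens, which sit on the surface of fibrils, held the 3 collagen chains with a mean difference above 0. In this class 3 of 9 were above 0, a share near the 38.1% of all tested probe sets, 0 passed the test and 0 were past an unadjusted p of 0.05 (limma). The 3 chains were Col9a1 (0.01), Col14a1 (0.05) and Col12a1 (0.25 ± 0.20 SE); all 3 are named here after their values were seen. Col12a1 levels were 3.09 to 3.60 in FP_lo (median 3.48), were 4.15, 3.67, 3.60 and 3.54 in FP_hi, and were 4.35, 3.61 and 3.53 in adenomas, so its mean was carried by adenoma replicate 1. Col9a2 (-0.05) and Col9a3 (-0.18) differed little. The 3 short-chain network collagens had a class median of -0.14 with none above 0, and the 2 remaining chains, Col26a1 (-0.19) among them, had a median of -0.12.

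Over all 44 collagens the median difference was -0.14 and 41 of 44 mean differences were below 0, but 31 of 44 lay below the -0.09 that was the median of all tested probe sets. After quantile normalization 41 of 44 were below 0 and 37 of 44 below the median of all probe sets, which had moved to -0.06. With array weights the counts were 39 and 32. They were 40 and 27 both with the replicate block and without adenoma replicate 3, and 37 and 30 against FP_lo alone. The 95% intervals of all 44 chains stayed below 1, the highest upper bound being 0.68 for Col12a1. A doubling on the array scale was thus outside each interval. These intervals do not bound the change in RNA, as it is not shown which of these levels stand above background.

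The mesenchymal cell proteins and matrix enzymes, which mark the cells that make matrix, showed 0 of 6 past the test and 0 at an unadjusted p under 0.05 (limma), with a class median of -0.13. Vimentin, encoded by Vim, is the intermediate filament of mesenchymal cells and leukocytes. Its log2 level was 5.13 to 6.43 in FP_lo (median 5.26), was 4.93, 4.97, 5.39 and 5.82 in FP_hi, and was 6.06, 6.04 and 5.35 in adenomas. FP_lo replicate 6 was higher than any adenoma, and the difference was 0.45 ± 0.28 (SE; limma, adjusted p = 0.568). The fibroblast receptor Pdgfra had adenoma levels of 4.57, 4.24 and 4.21 within the normal range of 4.00 to 4.63, and the mural cell receptor Pdgfrb had levels of 3.87, 4.01 and 3.99 beside a normal range of 3.96 to 4.77. The Pdgfrb value of 4.77 was FP_hi replicate 1.

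Thy1, a surface glycoprotein of fibroblasts and, in mice, T cells, had adenoma levels of 4.63, 4.74 and 4.06 beside a normal range of 4.28 to 6.03 (difference -0.34 ± 0.24 SE; limma, adjusted p = 0.609). Lox, which oxidises lysines so that collagen and elastin can be crosslinked, had adenoma levels of 3.49, 2.95 and 3.33 beside a normal range of 2.98 to 4.50. Fap, a serine protease of activated fibroblasts, had adenoma levels of 2.76, 2.57 and 3.03 beside a normal range of 2.38 to 4.24. For Thy1, Lox and Fap the top normal array was FP_hi replicate 1.

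**Figure D4:**
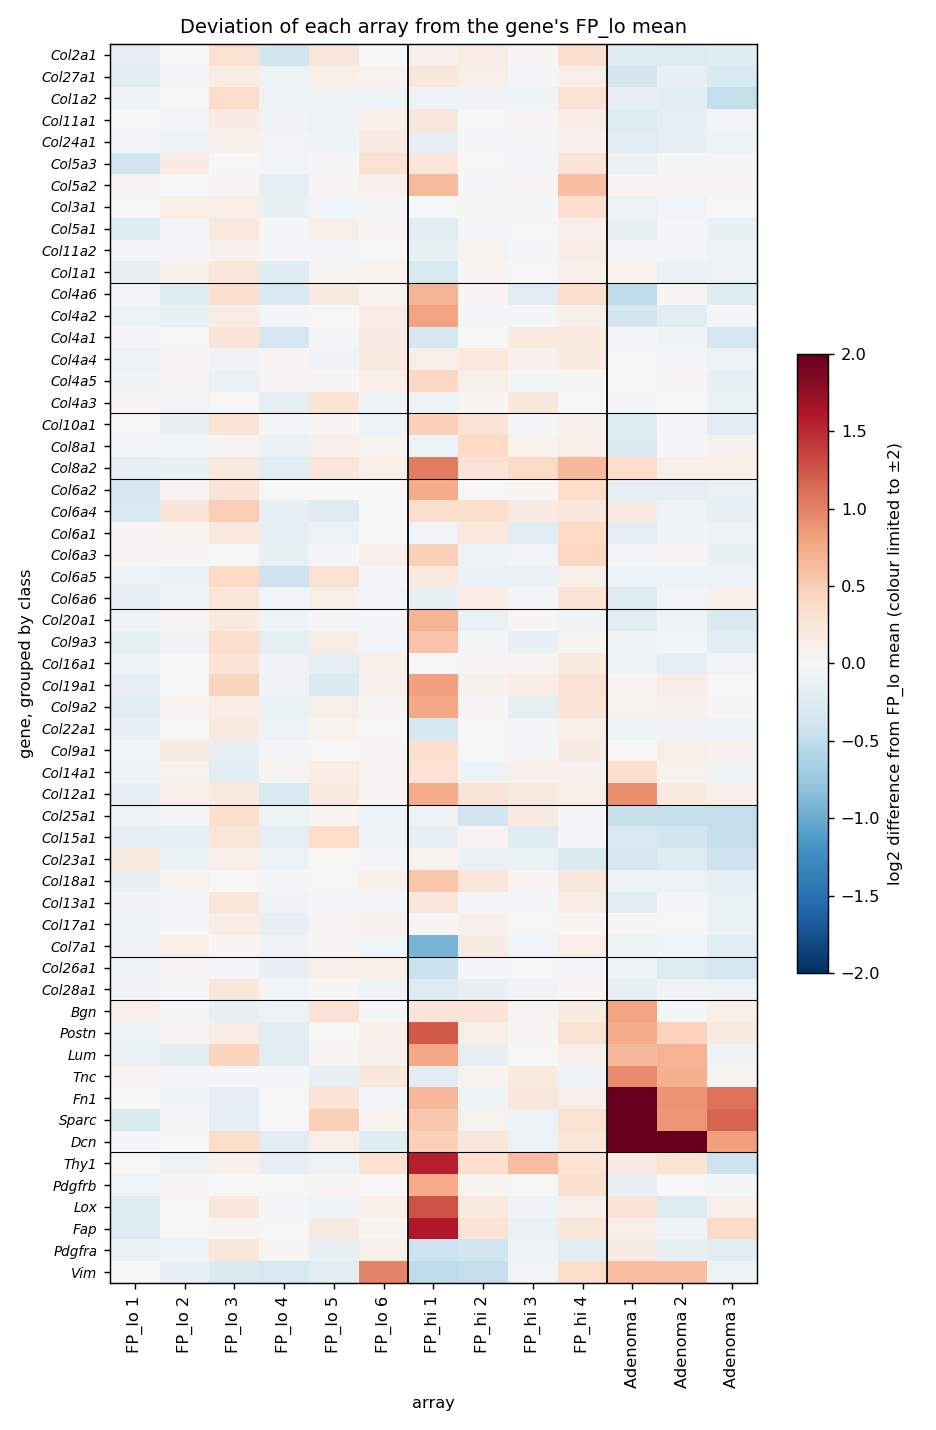
Level of each member in each array minus the mean of that gene in FP_lo, on the log2 scale (colours are limited to 2 units either way), with genes grouped by class. The darkest red cells are Dcn in adenoma replicates 1 and 2 and Fn1 and Sparc in replicate 1, and the column of FP_hi replicate 1 departs from its group across many genes.

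The comparison of FP_hi with FP_lo asked whether normal crypts with high and low FP expression differ. None of the members passed the test: 0 of 57 were called in either direction, where 0% of all tested probe sets did (limma). At an unadjusted p under 0.05, 3 members were higher in FP_hi (5.26%, against 4.78% of all tested probe sets) and 0 were lower (against 7.95%). The mean difference was above 0 in 44 of 57 members (77.2%, against 56.3% of all). Without FP_hi replicate 1 it was above 0 in 46 of 57 (80.7%, against 54.6%). The median member difference was 0.11, beside 0.05 over all probe sets, and without FP_hi replicate 1 it was 0.07 beside 0.02. Dim and bright probe sets behaved differently here: over the brighter 50% of probe sets the median of all was -0.23 and that of the members in it was 0.08. That setting kept FP_hi replicate 1, which held 362 probe sets above a log2 level of 9 where the others held 1091 to 1320. No member had a mean above 6, where 20.5% of tested probe sets did, so the 2 medians compare unlike levels.

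Col8a2, a short-chain collagen of hexagonal networks, was the member with the smallest p. Its log2 level was 4.24 to 4.69 in FP_lo (median 4.44), was 5.47, 4.71, 4.85 and 5.11 in FP_hi, and was 4.82, 4.57 and 4.57 in adenomas. All 4 FP_hi arrays lay above all 6 FP_lo arrays, as in 0.743% of all tested probe sets, and no other member showed this. The difference was 0.59 ± 0.17 (SE; limma, adjusted p = 0.263), and 0.44 ± 0.14 (SE; limma, adjusted p = 0.402) without FP_hi replicate 1.

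Thy1 levels were 4.28 to 4.78 in FP_lo (median 4.43) and 6.03, 4.80, 5.08 and 4.74 in FP_hi, so all but replicate 4 were above the FP_lo range. The difference was 0.69 ± 0.24 (SE; limma, adjusted p = 0.353), and 0.41 ± 0.16 (SE; limma, adjusted p = 0.522) without FP_hi replicate 1. Col18a1 levels were 4.69 to 4.94 in FP_lo (median 4.86) and 5.40, 5.09, 4.88 and 5.07 in FP_hi, with a difference of 0.26 ± 0.12 (SE; limma, adjusted p = 0.391). Pdgfra went the other way, at 4.26 to 4.63 in FP_lo (median 4.39) and 4.00, 4.03, 4.32 and 4.19 in FP_hi (difference -0.28 ± 0.13 SE; limma, adjusted p = 0.392).

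Several of the larger FP_hi differences came down on leaving out the array that stood apart. The Fap difference went from 0.49 to 0.12, that of Postn from 0.42 to 0.16, that of Lox from 0.38 to 0.08 and that of Pdgfrb from 0.28 to 0.13. Col5a2 (0.31) and Col19a1 (0.34) came to 0.20 and 0.17. The genes that rose in adenomas had small differences between the normal groups: 0.21 ± 0.44 (SE) for Dcn, 0.23 ± 0.21 for Fn1 and 0.19 ± 0.24 for Sparc. Over the 44 collagens the highest upper bound of a 95% interval was 0.95, for Col8a2, and the lowest lower bound was -0.58, for Col7a1.

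**Figure D5:**
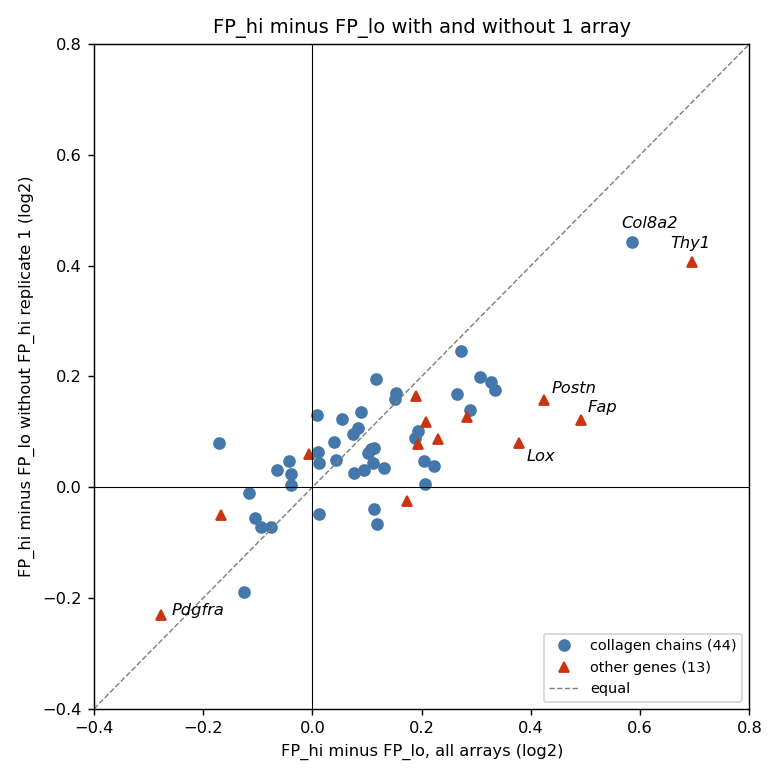
Difference between FP_hi and FP_lo epithelium in each of the 57 members, on the log2 scale, with all arrays (horizontal) and without FP_hi replicate 1 (vertical). Most points lie slightly above 0 on both axes, and Fap, Postn and Lox lie well below the dashed line of equal differences.

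The wider matrix machinery was read from 4 lists. Of the matrix receptors, through which cells hold on to matrix, 24 of 24 were measured and 3 rose in adenomas with 0 lower, beside 0.884% and 0.0256% of all tested probe sets. Cd44, the hyaluronan receptor and a known Wnt target, was 7.56, 7.33 and 7.80 in adenomas against a normal range of 4.43 to 6.98, a difference of 1.94 ± 0.35 (SE; limma, adjusted p = 0.0187). Itga2, the alpha chain of a collagen-binding integrin, differed by 1.31 ± 0.23 (SE; limma, adjusted p = 0.0189). Itgav, the alpha chain of integrins that bind fibronectin and vitronectin, differed by 1.27 ± 0.24 (SE; limma, adjusted p = 0.0268). For all 3 the adenomas lay above every normal array, as in 1.93% of all tested probe sets. Their calls were lost against FP_lo alone (limma, adjusted p = 0.174, 0.284 and 0.136), and each was also lost without at least 2 of the adenoma replicates in turn. With the replicate number as a block, Itga2 and Itgav did not pass (limma, adjusted p = 0.107 and 0.0723).

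Of the matrix-degrading enzymes and their inhibitors, 21 of 23 were measured and 1 rose, again beside 0.884% of all tested probe sets. Mmp10, stromelysin-2, is a protease with fibronectin and basement membrane proteins among its substrates. It was 7.32, 6.91 and 5.52 in adenomas against a normal range of 3.81 to 4.72. The adenomas stood clear of all normal arrays, with a difference of 2.46 ± 0.31 (SE), or 5.49-fold (limma, adjusted p = 0.00199), and with the replicate number as a block the adjusted p was 0.0525.

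Of the collagen-processing genes, whose products hydroxylate, fold, export and trim procollagen, 27 of 29 were measured, and 0 passed, with 2 higher and 2 lower at an unadjusted p under 0.05 (limma), beside 5.98% higher and 4.59% lower over all tested probe sets. The smallest p values belonged to Pcolce2 (0.75 ± 0.22 SE; limma, adjusted p = 0.185), Plod2 (0.85 ± 0.26 SE; limma, adjusted p = 0.216) and P3h4 (-0.26; limma, adjusted p = 0.441). Of the non-collagen basement membrane genes 14 of 15 were measured, and 0 passed, with 3 higher and 0 lower at an unadjusted p under 0.05 (the same shares of all apply). The laminin chains Lama3 (0.76 ± 0.18 SE; limma, adjusted p = 0.0769) and Lamc1 (0.77 ± 0.23 SE; limma, adjusted p = 0.209) and the linker nidogen 1, Nid1 (0.41; limma, adjusted p = 0.419), had the smallest p values. None of the 4 lists had a gene past the test between FP_hi and FP_lo. At an unadjusted p under 0.05, the counts higher and lower there were 0 and 2 for processing, 2 and 0 for degradation, 0 and 0 for basement membrane and 0 and 3 for receptors, beside 4.78% and 7.95% of all tested probe sets. Of the receptors, Itga2 (-0.97) and Cd44 (-1.08) had among the smallest p values in that comparison.

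Markers of the other cells that a picked crypt can carry were set beside these results. The mean log2 level of 13 fibroblast markers was 3.79 to 4.11 in FP_lo, 4.03 to 4.30 in FP_hi and 3.97 to 4.13 in adenomas, so the adenomas lay within the normal arrays. The ranges in the same order were 3.85 to 4.22, 3.90 to 4.65 and 3.90 to 4.20 for smooth muscle, and 3.82 to 4.16, 3.97 to 4.50 and 4.05 to 4.19 for endothelium. For pericytes they were 4.24 to 4.51, 4.49 to 4.88 and 4.45 to 4.86, and for enteric glia (3 of 4 markers measured) 3.92 to 4.28, 4.07 to 4.18 and 4.17 to 4.28. In each list the top FP_hi value was FP_hi replicate 1, the array that stands apart. Of the other normal arrays, FP_hi replicate 4 was highest for endothelium (4.18) and pericytes (4.68). Adenoma replicate 1 was above it in both, at 4.19 and 4.86, but not for fibroblasts. It was the highest adenoma in each list but glia. None of the markers of these 5 types passed the adenoma test. At an unadjusted p under 0.05 (limma), 1 of 13 fibroblast, 1 of 7 smooth muscle, 2 of 8 endothelial, 1 of 5 pericyte and 0 of 3 glial markers were higher, and 1 endothelial marker was lower. Over all tested probe sets 5.98% were higher and 4.59% lower at that p.

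Over these lists the share of markers with an adenoma difference below 0 was near or under the 61.9% of all tested probe sets. The difference was below 0 in 3 of 5 pericyte markers (list median -0.15), 4 of 7 smooth muscle markers (median -0.11) and 5 of 8 endothelial markers (median -0.16). The same held for 7 of 13 fibroblast markers (median -0.05) and 1 of 3 glial markers (median 5.95e-04). The following single markers are named after their values were seen, and they are those with the largest positive differences in their lists. The pericyte marker Rgs5 was 4.94, 4.43 and 3.84 in adenomas (difference 0.92 ± 0.25 SE; limma, adjusted p = 0.15) and the smooth muscle actin Acta2 was 4.97, 4.45 and 4.16 (difference 0.40; limma, adjusted p = 0.428). The endothelial genes Cdh5 (0.76; limma, adjusted p = 0.133) and Emcn (0.66; limma, adjusted p = 0.18) did not pass, while the lowest difference among the 8 endothelial markers was -0.43, for Plvap. The part of such cells in the Dcn, Fn1 and Sparc results was not tested. Macrophage markers averaged 4.35 to 4.66 in FP_lo, 4.35 to 4.71 in FP_hi and 4.33 to 4.47 in adenomas, and lymphocyte markers 3.61 to 4.21, 3.95 to 4.57 and 3.87 to 4.30. Of these only Ptprc, the leukocyte antigen CD45, passed the test, at 5.29, 4.77 and 5.07 in adenomas (difference 0.79 ± 0.16 SE; limma, adjusted p = 0.0393), beside 0.884% of all tested probe sets. This call was lost with the replicate number as a block (adjusted p = 0.204) and under 11 other alternatives. The difference was below 0 in 4 of 8 macrophage markers (median -0.03) and 3 of 6 lymphocyte markers (median -0.05). At an unadjusted p under 0.05 (limma), 1 macrophage marker was lower, beside 4.59% of all tested probe sets. Epithelial markers averaged 8.03 to 8.89, 6.13 to 8.93 and 8.26 to 8.92, with FP_hi replicate 1 at the low end.

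The sex of the animals is not given in the labels, and it was not balanced by its transcripts. Xist, made from the inactive X chromosome of females, was 9.71, 8.88 and 8.98 in adenomas, 8.64 in FP_hi replicate 4 and 8.74 in FP_lo replicate 6, and at most 3.61 in every other normal array. In those 2 Xist-high normal arrays Dcn was 3.83 and 3.35, Fn1 was 4.25 and 4.09 and Sparc was 4.82 and 4.56. All of these values lay within the range of the other normal arrays except Dcn in FP_lo replicate 6, which was the lowest of the 10. All the adenomas but only 2 of the 10 normal arrays were Xist-high, and the part of sex in the adenoma differences was not tested.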

How the data were processed

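RNA from 13 crypt or adenoma samples was hybridised to Affymetrix Mouse Gene 1.0 ST arrays. The deposited series table holds the authors' log2 values, 1 column per array and 35556 rows. Per the submitters' processing notes, Expression Console and Transcriptome Analysis Console were used, and the design text adds GeneChip Command Console. How values were normalized and background-corrected, and with which software versions, is not given in the sources used here. Their range was taken to show a log2 scale. No column of the table was left out (0 columns).

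Gene names came from the annotation of the array platform, in which 21789 rows had 1 gene symbol, 1621 had several and 12146 had none. The 23410 rows with a symbol were fitted with limma 3.58.1 (lmFit, eBayes) in R 4.3.3, with 3 group means and no covariate. The tests were two-sided, p-values were adjusted by Benjamini-Hochberg over all 23410 rows, and a call is an adjusted p under 0.05. Fold changes are on the array's log2 scale, and the number of arrays (6, 4 and 3) limits the precision. Probe sets of 1 gene were not averaged: Col6a5 and Col6a6 had 2 each. All 57 members were matched to RefSeq genes by Entrez identifier.

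The members, the lists and the rule for named genes were chosen with earlier results of these data known. Named genes are the called members, the 8 with the smallest p in each comparison, the 10 with the highest mean, 11 chosen collagens and the listed non-collagens; of other lists, the called genes or else the 3 with the smallest p. Replicate numbers were checked for pairing by correlating deviations from group means across probe sets. Same-numbered FP_hi and adenoma arrays gave 0.233, 0.102 and 0.220, all above the bound of 0.1 that was set for a pairing. FP_hi with FP_lo gave -0.361, 0.178, -0.286 and 0.090, and FP_lo with adenoma -0.116, 0.061 and -0.062. The labels do not say what a number marks. Xist was 9.71, 8.88 and 8.98 in the adenomas but at most 3.61 in FP_hi and FP_lo replicates 1 to 3. Adenoma and normal replicates 2 and 3 with the same number were therefore not from the same mouse, nor were adenoma and FP_lo replicates 1. FP_hi replicate 1 stands apart from the series, so its Xist level of 3.61 does not settle this for that array. Alternatives were quantile normalization, array weights, a filter on dim probe sets, the replicate block, other normal references, other rows tested, other moderation and leaving out each array.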

Additional observations from a re-analysis of the deposited data

Results flagged for a closer look

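In 7 of 82 groups of member values, 1 array lay far from the rest of its group (Dixon's test at 95%, which chance alone flags in about 1 in 20 groups). In FP_hi replicate 4, Col1a2 was 5.63 where the other FP_hi arrays were 5.26 to 5.29, and Col3a1 was 5.40 where the others were 5.06 to 5.10. In FP_hi replicate 1, the array that stands apart from the series, Col4a2 was 6.07 (others 5.22 to 5.37) and Col26a1 was 5.41 (others 5.81 to 5.85). In FP_lo, Col1a2 was 5.71 in replicate 3 (others 5.24 to 5.36), Col5a2 was 3.75 in replicate 4 (others 3.95 to 4.03) and Vim was 6.43 in replicate 6 (others 5.13 to 5.43).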

How the results depend on the processing

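The count of members called between adenoma and normal epithelium, 3 as reported, was 1 (Sparc) when only probe sets at or above the median level were tested, a filter that removes Dcn and Fn1, and 0 with the replicate block or with FP_hi alone as the normal reference. Leaving out each array in turn gave 0 to 3: 0 without adenoma replicate 1, and 2 without FP_lo replicate 2, FP_lo replicate 4 or adenoma replicate 2, where Dcn was lost (limma, adjusted p = 0.0508, 0.0509 and 0.156). Without adenoma replicate 3, Sparc was lost (adjusted p = 0.0563) and Tnc gained. The median member difference of -0.12 was -0.15 under that filter and under quantile normalization, -0.087 with array weights, -0.072 against FP_lo alone and -0.18 against FP_hi alone, and -0.14 to -0.11 on leaving out arrays. Between FP_hi and FP_lo the count was 0 under every alternative run, and the median was 0.07 to 0.19. Over alternatives other than left-out arrays, the adjusted p was 0.00974 to 0.168 for Dcn, 0.0024 to 0.0718 for Fn1 and 0.0054 to 0.0843 for Sparc. Of 1737 recomputed differences of 41 named genes, 1696 stayed on the same side of the threshold, 40 no longer passed it and 1 newly passed it. Dcn, Fn1 and Sparc kept their direction throughout. Differences that did not pass could change sign. That of Bgn (0.21) reached -0.04 on leaving out arrays, and that of Col8a2 (-0.09) was 0.20 against FP_lo alone. Probe sets called over the whole table (207 higher, 6 lower) numbered 692 and 461 with array weights, 344 and 144 without FP_hi replicate 1, 66 and 1 with the block, and 196 and 46 after quantile normalization. The cause of these changes was not tested. The deposited values carry no detection calls, so low signal limits the dim members.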

Other observations

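Col6a5 had the same deposited log2 value, 4.99, in all 3 adenomas and in FP_lo replicate 1, while its other arrays ranged from 4.70 to 5.51. Col5a2 was 3.98 in each of the 3 adenomas, with values that differed in the third decimal. The second probe set of Col6a6 was dimmer, at 3.31 in adenoma replicate 1 and 2.90 in adenoma replicate 3, where the first was 5.49 and 5.86. The second probe set of Col6a5 was 3.67 and 3.69 in those arrays.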
